A study of Mus musculus with 8 samples.

Results

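Glucocorticoid-responsive genes were followed across single-cell RNA-seq libraries of mouse spinal cord microglia, the macrophages that live in the brain and spinal cord. The group was 9 genes of the 27998 in the deposited gene list: the receptor gene Nr3c1, its classic targets Fkbp5, Tsc22d3, Per1, Sgk1, Klf9 and Ddit4, and the metallothioneins Mt1 and Mt2. The symbols were selected on measured values of these data, namely their levels in 5 libraries (control day 3 and all 4 A20 cKO libraries) set against the other 3. Levels between those sets of libraries are therefore a description and were not tested. All 9 genes had at least 1 UMI (unique molecular identifier, 1 counted RNA molecule) in each of the 8 libraries.

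Lumbar cord cells carrying YFP were sorted from C57BL/6 mice and sequenced after bilateral sciatic nerve transection or without injury, to ask how microglia enter and leave the cell cycle after nerve injury. Controls were Cx3cr1-yfp-creER/+ animals, and A20 cKO animals were Cx3cr1-yfp-creER/+; Tnfaip3 fl/fl, so that both genotypes carried the same reporter and tamoxifen-inducible Cre at the Cx3cr1 locus. Tnfaip3 encodes A20, an inhibitor of NF-kappaB signalling. Each genotype had 1 library from naive animals and 1 each from day 1, day 2 and day 3 after injury. The age given in the study is young adult, the cords of several animals were pooled in a library, and Cre at this locus can also act in other Cx3cr1-expressing cells. The methods describe a tamoxifen course ahead of every experiment and do not mention the controls separately. With 1 library per group there was no replicate and no test between groups was possible. All intervals below are at 95% and cover counting error only.

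Glucocorticoids cross the cell membrane and bind the glucocorticoid receptor, which Nr3c1 encodes and which HSP90 and co-chaperones hold in the cytoplasm. The bound receptor moves to the nucleus, binds palindromic response elements in DNA and raises or lowers transcription of nearby genes. Several targets feed back on the hormone or on inflammation: FKBP5 lowers the receptor's affinity for hormone, and TSC22D3 (GILZ) restrains NF-kappaB and AP-1. Microglia express the receptor at high levels, and glucocorticoids are known to dampen their inflammatory responses. None of these genes is read by the glucocorticoid receptor alone, since growth factors, stress, the circadian clock, hypoxia and metals act on them too.

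The stretch before a transcription start shows which short recognition letters each gene carries there. Of the 9 genes, 8 had entries in the RefSeq promoter table (GRCm38.p6), with 16 starts in all, and Nr3c1 had none. The full palindrome AGAACA, any 3 bases, then TGTTCT was in 0.00913% of 32851 promoters of the same length (250 bases before the start), and in a single one of the 16, at a start inside the Sgk1 gene. The metal response element core TGCNCNC was in 44.4% of all promoters and occurred 3 or more times in 4.65%. The Mt2 promoter held it 5 times, those of Ddit4 and Per1 (start 2) 2 times and that of Mt1 1 time. Fkbp5, start 3 of Tsc22d3 and starts 4 and 6 of Sgk1 also held it 1 time. Only the 250 bases before each listed start were read. Elements elsewhere, or at a start not listed, are not in these counts. The E-box CACGTG, to which clock factors bind, was in 6.02% of all promoters and in those of Fkbp5, Per1 (start 1) and Sgk1 (start 5). AGAACA alone was in 16.1% of all promoters, and TATAAA in 12.4%, among them starts 4 and 6 of Sgk1. TGACGTCA was in 1.55% of all promoters and in none of the 16. Both strands were read. In Fkbp5 a match to TGCNCNC overlaps the E-box, and in Sgk1 start 5 a further AGAACA match overlaps the E-box at its outer end. A match is a stretch of letters and not a measured binding site.

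Windows are shown for the genes on which the results turn. Sgk1 start 5 (chr10:21993640-21993889, plus strand) lies between exons of Sgk1, with the palindrome 189 to 175 bases before the start in capitals. The Fkbp5 window (chr17:28486150-28486399, minus strand) has its E-box in capitals. In the windows of Ddit4 (chr10:59951835-59952020, minus strand), Mt2 (chr8:94172368-94172617, plus strand) and Mt1 (chr8:94178839-94179081, plus strand) capitals mark TGCNCNC on either strand. Bases covered by an annotated exon of the gene itself were left off the ends of the Ddit4 and Mt1 windows.
Sgk1, start 5: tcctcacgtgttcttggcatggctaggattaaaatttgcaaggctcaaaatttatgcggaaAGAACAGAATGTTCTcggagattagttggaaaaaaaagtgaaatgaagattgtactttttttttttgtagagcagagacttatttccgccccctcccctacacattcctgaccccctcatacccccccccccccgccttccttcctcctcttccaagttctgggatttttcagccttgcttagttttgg
Fkbp5: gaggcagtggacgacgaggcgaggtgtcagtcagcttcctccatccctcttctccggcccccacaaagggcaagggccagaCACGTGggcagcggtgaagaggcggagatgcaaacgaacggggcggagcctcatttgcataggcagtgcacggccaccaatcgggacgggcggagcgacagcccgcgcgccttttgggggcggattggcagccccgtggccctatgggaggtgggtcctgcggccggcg
Ddit4: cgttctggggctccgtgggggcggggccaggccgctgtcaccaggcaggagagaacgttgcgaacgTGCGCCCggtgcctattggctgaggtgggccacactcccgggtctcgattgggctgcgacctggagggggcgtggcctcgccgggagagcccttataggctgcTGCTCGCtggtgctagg
Mt2: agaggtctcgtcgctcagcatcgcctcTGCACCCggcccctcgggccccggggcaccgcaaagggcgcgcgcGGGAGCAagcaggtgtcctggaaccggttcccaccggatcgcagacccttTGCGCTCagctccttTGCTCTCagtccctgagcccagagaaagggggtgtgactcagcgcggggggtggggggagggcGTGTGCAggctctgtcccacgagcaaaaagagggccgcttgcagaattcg
Mt1: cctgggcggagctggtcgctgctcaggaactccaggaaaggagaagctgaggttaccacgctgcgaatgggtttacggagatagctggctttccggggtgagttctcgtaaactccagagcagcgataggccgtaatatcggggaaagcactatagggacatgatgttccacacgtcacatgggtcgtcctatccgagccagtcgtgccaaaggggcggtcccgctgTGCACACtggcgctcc

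In GENCODE M21 on GRCm38, Ddit4 lies at chr10:59949669-59951834 (minus strand), Fkbp5 at chr17:28399094-28517527 (minus), Tsc22d3 at chrX:140539528-140600659 (minus) and Per1 at chr11:69095217-69109960 (plus). Sgk1 lies at chr10:21882184-21999903 (plus), Klf9 at chr19:23141226-23168134 (plus) and Nr3c1 at chr18:39410545-39519421 (minus). Mt2 at chr8:94172664-94173568 and Mt1 at chr8:94179082-94180327, both on the plus strand, are 5513 bases apart. The libraries read RNA from its 3′ end, so that a value refers to the gene and not to any of its starts.

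After cells with under 1000 UMIs, under 500 genes or over 10% mitochondrial UMIs were left out, 14626 of 14883 barcodes remained, 558 to 3585 per library, with a median depth of 2780 to 4274 UMIs. Tmem119, a microglial marker gene, was found in 96.2% to 100% of cells of every library, while levels of some other microglial markers fell, as given below. Libraries stood apart before any result. In the 10 pairs among control day 3 and the A20 cKO libraries, 256 cell barcodes were found in both libraries of a pair against 98 in 15 pairs between these and the other libraries and 27 in the 3 pairs within the latter. Per 1000000 possible barcode pairs the medians were 13.7, 1.94 and 1.59. Sharing was uneven within the first kind of pair. The injured A20 cKO libraries shared 67.6, 33.4 and 39.5 among themselves and 9.11 to 11.5 with A20 cKO naive. Control day 3 with A20 cKO naive was at 5.41, under the 8.83 of control naive with A20 cKO day 1. Control day 3 and the 4 A20 cKO libraries are called the linked libraries below. Genotype and this split cannot be told apart, except through control day 3. Tnfaip3, the floxed gene, was at 24.1, 25.3, 6.83 and 20.3 CPM (UMIs of a gene per 1000000 UMIs) in the control libraries from naive to day 3, and at 47.4, 42.3, 52.4 and 67.7 CPM in the A20 cKO libraries. It was higher in each A20 cKO library than in any control library, and since 3′ counts need not lie in the deleted part they do not check the genotype. Both genotype names are used here as the labels give them.

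Transcripts of several other cell types also followed the split, though not in every list or every gene of a list. The summed astrocyte list (7 genes) was at 268 to 401 CPM in the linked libraries against 110 to 170 in the other 3, with most of it from Slc1a3. The oligodendrocyte list (6 genes) was at 218 to 286 against 137 to 149 CPM. Its Mbp, the gene of myelin basic protein, was at 79.9 to 134 against 14.7 to 24.7 CPM. Mag and Cnp of the same list overlapped between the sets. Mag was at 30.7 to 44.9 against 35.5 to 46.9 CPM, and Cnp at 65.7 to 90.9 against 65.4 to 78.5 CPM. The lymphocyte and neutrophil list was at 18.9 to 32.0 against 0 to 3.60 CPM, nearly all of it S100a8 and S100a9, with Cd3e at 0 in all 8 libraries. The monocyte and border macrophage list was at 3.48 to 5.61 against 1.28 to 2.47 CPM with Cd163 at 0 throughout. Red blood cell genes were at 0.660 to 6.84 CPM against 0. The neuron list (4.53 to 12.5 against 1.21 to 5.55 CPM) and the endothelial list (27.8 to 48.9 against 13.7 to 51.2 CPM) overlapped between the sets. The microglia list (7 genes) was at 11339 to 18119 against 19164 to 23570 CPM. In it Fcrls was at 1336 CPM in control naive and 1078 in control day 3, but at 116 and 113 in A20 cKO day 2 and day 3. P2ry12 was at 4026, 2191, 908 and 845 CPM in the same libraries. Sall1 differed little between the sets (0.02). The part of these transcripts in the values below was not tested, except where a value without such cells is given.

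Nr3c1, the receptor gene, differed little between libraries. In controls it was at 137 CPM without injury and at 120.4, 107 and 186 CPM over days 1 to 3. In A20 cKO it was at 179 CPM without injury and at 149, 137.4 and 138.5 CPM over days 1 to 3. The order ran from control day 3 (interval 176 to 196) down to control day 2 (102 to 112). Intervals of neighbours in that order overlapped except in 2 of the 7 steps. These were A20 cKO naive over A20 cKO day 1 and control day 1 over control day 2. The lowest linked library lay just above the highest of the other 3, with overlapping intervals. After each cell was thinned to 2000 UMIs, Nr3c1 was found in 20.2% to 24.3% of cells of the other 3 libraries and in 23.4% to 31.2% of cells of the linked libraries.

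Fkbp5, the co-chaperone gene of the receptor's feedback loop, separated the sets by several fold. It was at 48.8 (38.6 to 60.8), 36.5 (33.4 to 39.8) and 46.8 (43.5 to 50.3) CPM in control naive, day 1 and day 2. In control day 3 it was at 300.7 CPM (288 to 314). A20 cKO naive had 304.6 CPM (293 to 316), and the injured A20 cKO libraries had 262.5 (245 to 281), 253.1 (236 to 272) and 183.4 (167 to 201) CPM over days 1 to 3. The sets did not come near each other, and A20 cKO naive and control day 3, which headed the order, had overlapping intervals. Within the linked libraries the highest level was 1.66 times the lowest, and within the other 3 it was 1.34 times. Thinned cells with an Fkbp5 UMI made up 7.22% to 9.16% in the other 3 libraries and 31.4% to 45.9% in the linked libraries, and unthinned 12.9% to 18.02% and 50.2% to 62.3%. No sorted cell type that lacks these genes was measured, so the part of free RNA in such shares is unknown.

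Ddit4, which encodes REDD1, an inhibitor of the growth kinase complex mTORC1 that also responds to hypoxia and DNA damage, spread most widely. In control naive, day 1 and day 2 it was at 9.87 (5.64 to 16.0), 8.04 (6.62 to 9.66) and 23.2 (20.9 to 25.7) CPM. In control day 3 it was at 190.8 CPM (181 to 201). A20 cKO naive had 256.4 CPM (246 to 267), A20 cKO day 1 98.7 (87.9 to 111), day 2 95.6 (84.9 to 107) and day 3 66.9 (57.2 to 77.7). All 5 linked libraries lay above the other 3, yet they also differed among themselves by 3.83 times. Only the intervals of A20 cKO day 1 and day 2 overlapped among them. The share of thinned cells with a Ddit4 UMI was 1.58% to 4.31% in the other 3 and 13.0% to 39.9% in the linked libraries. No single cell carried the signal, since the cell with most Ddit4 UMIs held at most 6.25% of them in any library.

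Per1, the clock repressor gene that glucocorticoids induce directly, was lower in level and had the same split. Control naive, day 1 and day 2 had 8.02 (4.27 to 13.7), 20.1 (17.8 to 22.5) and 4.68 (3.67 to 5.87) CPM. Control day 3 had 39.7 CPM (35.2 to 44.5), and the A20 cKO libraries had 38.5 (34.5 to 42.8), 49.5 (41.9 to 58.1), 33.0 (26.8 to 40.1) and 26.8 (20.8 to 33.9) CPM in naive, day 1, day 2 and day 3. The interval of A20 cKO day 3 overlapped that of control day 1, so the intervals of the sets met at their edges. These libraries were not compared directly.

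Klf9, a Krüppel-like transcription factor gene, was near the limit of detection. It had 1, 17 and 22 UMIs in control naive, day 1 and day 2, which is 0.617 (0.0156 to 3.44), 1.21 (0.704 to 1.94) and 1.39 (0.872 to 2.11) CPM. In control day 3 it had 88 UMIs or 12.1 CPM (9.69 to 14.9). The A20 cKO libraries had 55, 5, 19 and 10 UMIs, or 6.17 (4.65 to 8.03), 1.65 (0.536 to 3.85), 6.26 (3.77 to 9.78) and 3.93 (1.89 to 7.24) CPM, in naive, day 1, day 2 and day 3. A20 cKO day 1 could not be told from the other 3 libraries at this depth, and every pair of neighbours in the order of Klf9 overlapped.

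Tsc22d3, the gene of the anti-inflammatory leucine zipper protein GILZ, did not follow the split. Its level was 93.2 (78.9 to 109), 341.003 (331 to 351) and 110.005 (105 to 115) CPM in control naive, day 1 and day 2. In control day 3 it was at 319 CPM (306 to 332). A20 cKO naive had 456 CPM (442 to 470.4), day 1 166 (152 to 181), day 2 169.75 (155 to 185) and day 3 219 (201 to 238). Control day 1 stood next to A20 cKO naive and control day 3 at the top of the order. Its interval met that of control day 3 at the edge, and these libraries were not compared directly. The share of thinned cells with a UMI was 46.4% in control day 1 against 15.7% and 20.1% in control naive and day 2, and 27.3% to 55.7% in the linked libraries.

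Sgk1, which encodes a kinase that regulates ion channels and FOXO factors downstream of PI3K, ran in yet another order. It was at 437.5 (406 to 471), 970.4 (954 to 987) and 283.5 (275 to 292) CPM in control naive, day 1 and day 2. Control day 3 had 475.7 CPM (459.95 to 492). A20 cKO naive, day 1, day 2 and day 3 had 720.03 (703 to 738), 333.8 (314 to 355), 295.3 (276 to 315) and 413.2 (389 to 439) CPM. Control day 1 was highest and control day 2 lowest of all 8, so that the other 3 libraries enclosed the linked ones. Between 42.7% and 74.1% of thinned cells held an Sgk1 UMI.

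The metallothioneins Mt1 and Mt2 encode small proteins that bind zinc and copper and are induced by both metals and glucocorticoids. Mt1 was at 156.1 CPM in control naive and at 117, 146 and 156.6 CPM over days 1 to 3. In A20 cKO naive it was at 116 CPM, with 128, 143 and 172 CPM over days 1 to 3. Ranked by level, from A20 cKO day 3 down to A20 cKO naive, libraries next to each other all had overlapping intervals. The highest level was under 1.5 times the lowest. Libraries further apart in rank could differ, as control day 1 did from control naive at -0.41 on the log2 scale (-0.60 to -0.21). Mt2 had between 5 and 50 UMIs per library. It was at 3.09 (1.002 to 7.20), 1.14 (0.651 to 1.85) and 2.84 (2.08 to 3.81) CPM in control naive, day 1 and day 2, and at 6.86 (5.09 to 9.05) in control day 3. A20 cKO naive, day 1, day 2 and day 3 had 4.71 (3.39 to 6.37), 5.61 (3.27 to 8.99), 11.5 (8.04 to 16.04) and 12.2 (8.29 to 17.3) CPM. The linked values lay above the others, but the interval of control naive reached into their range.

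The ratio of the 2 metallothioneins therefore differed between libraries. There were 50.6 Mt1 UMIs per Mt2 UMI in control naive (21.4 to 157), 103 in control day 1 (63.4 to 181) and 51.4 in control day 2 (38.3 to 70.7). The ratio was 22.8 (17.2 to 30.9) in control day 3, and 24.7, 22.9, 12.4 and 14.1 in A20 cKO naive, day 1, day 2 and day 3. The intervals of control day 1 and day 2 lay above those of control day 3, A20 cKO naive, day 2 and day 3, while that of control naive overlapped several of them. How reads that fit both near relatives were counted is not given in the sources used here.

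**Figure D1:**
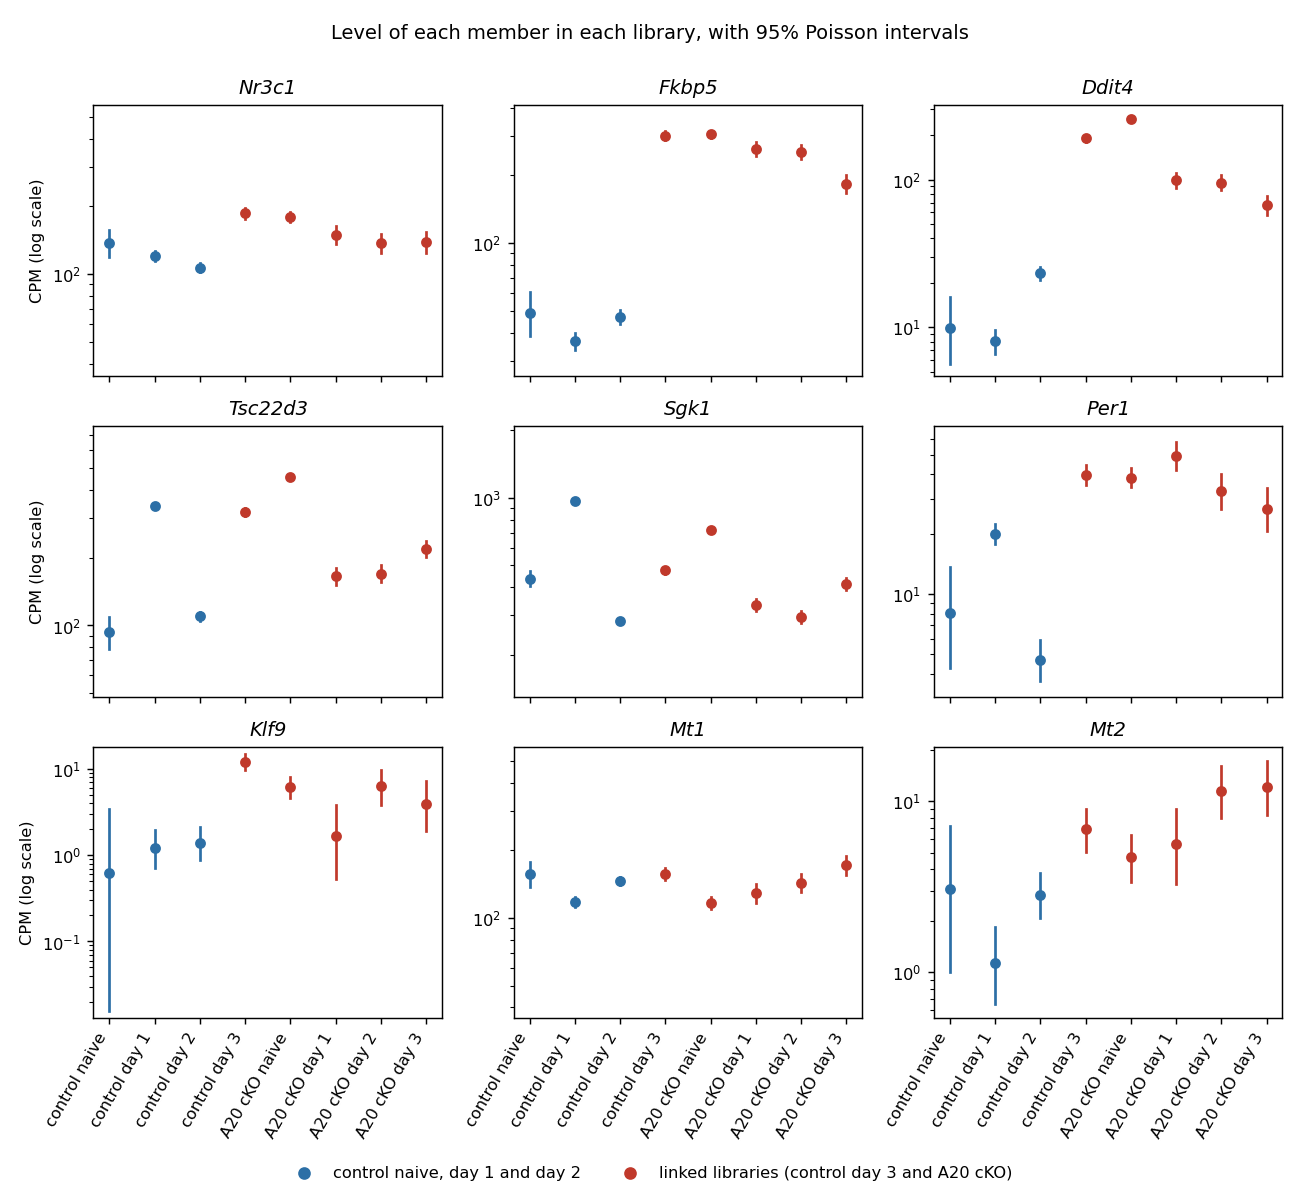
Level of each of the 9 genes in CPM on a log axis in the 8 libraries (blue for control naive, day 1 and day 2, red for control day 3 and the A20 cKO libraries), 1 point per library with its 95% Poisson interval. Red points lie above all blue points for Ddit4, Fkbp5, Per1, Klf9, Mt2 and, narrowly, Nr3c1, and are mixed with them for Tsc22d3, Sgk1 and Mt1.

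As a single number, the difference of mean log2 level (0.5 UMIs added) between the linked libraries and the other 3 was 3.34 for Ddit4, 2.55 for Fkbp5, 2.13 for Klf9, 2.00 for Per1 and 1.78 for Mt2. These 5 of the 9 genes passed 2-fold higher with no overlap between the sets, which 8.1% of the 11045 genes tested also did, and 1.31% did so in the lower direction, none of them from this group. The rule that chose the genes used this contrast, so nothing is read from the count. Nearest below the limit was Tsc22d3 at 0.70, with overlapping sets, followed by Nr3c1 at 0.38. Mt1 was at 0.03 and Sgk1 at -0.21, and the median was 1.78 over the 9 genes and 0.11 over all genes. Without barcodes found in more than 1 library the count was 3, as it was without cells holding a UMI of a core cell cycle gene (Ddit4, Fkbp5 and Per1 each time). Without cells with a UMI of any other cell type's marker it was 2 (Ddit4 and Fkbp5), on 67 to 69 cells in A20 cKO day 2 and day 3, with Per1 at 1.66, Klf9 at 2.38 and Mt2 at 0.40 on overlapping sets or too few UMIs. Without control day 1 it was 6, since Tsc22d3 then passed.

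**Figure D2:**
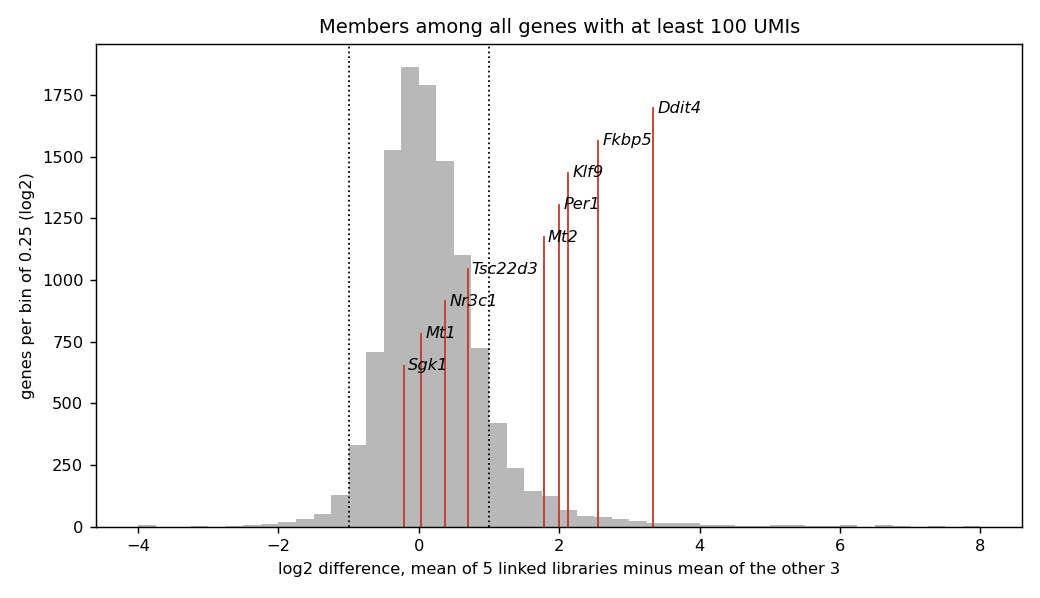
Histogram of the difference in mean log2 CPM between the 5 linked libraries and the other 3 over the 11045 genes tested, with the 9 genes marked by vertical lines. Ddit4, Fkbp5, Klf9, Per1 and Mt2 lie at 1.78 or above, and Sgk1, Mt1, Nr3c1 and Tsc22d3 lie within 1 log2 unit of 0.

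Comparisons inside the other 3 libraries avoid the split. On day 1 after injury in controls, against control naive, Tsc22d3 was higher by 1.87 on the log2 scale (1.64 to 2.12), Per1 by 1.27 (0.52 to 2.25) and Sgk1 by 1.15 (1.04 to 1.26). These were 3 of 7 genes with at least 100 UMIs in both libraries together, and 3.82% of 8866 genes passed 2-fold higher in the same comparison, 7.25% lower. None of the 7 was lower by 2-fold: Fkbp5 was at -0.43 (-0.76 to -0.06), Ddit4 at -0.33 (-1.06 to 0.56), Mt1 at -0.41 (-0.60 to -0.21) and Nr3c1 at -0.19 (-0.39 to 0.02). Without cells holding a UMI of another cell type's marker, Per1 was at 0.54 and no longer past 2-fold.

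On day 2 the 3 genes were low again. Against control day 1, Tsc22d3 was lower by 1.63 (interval -1.71 to -1.55 for day 2 minus day 1), Per1 by 2.09 (-2.49 to -1.73) and Sgk1 by 1.78 (-1.82 to -1.73), 3 of 7 genes where 1.83% of all genes passed. Ddit4 was higher by 1.52 (1.22 to 1.85), 1 of 7 where 3.8% passed. Against control naive, with which day 1 was also compared, day 2 differed past 2-fold in Ddit4 alone, at 1.19 (0.51 to 2.06), 1 of 6 genes where 5.92% passed higher, and in none lower where 6.28% passed. Sgk1 was at -0.63 (-0.74 to -0.51) and Tsc22d3 at 0.24 (-0.0012 to 0.49).

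Immediate-early genes followed the same days. The list of 14 immediate-early and heat shock genes (Fos, Jun, Egr1, Hspa1a and relatives, switched on within minutes of a stimulus or of tissue handling) summed to 1554, 21696 and 2235 CPM in control naive, day 1 and day 2, to 3263 in control day 3, and to 5302, 1232, 1089 and 4177 in A20 cKO naive, day 1, day 2 and day 3. On day 1 all 12 of its tested genes were past 2-fold higher than in control naive, where 3.82% of all genes passed. On day 2 all 12 were past 2-fold lower than on day 1, where 1.83% passed. Control day 1 and A20 cKO naive were the highest libraries in this sum and also in Sgk1. Tsc22d3 had the same libraries at the top, with control day 3 close behind, while Fkbp5 had its lowest level in control day 1. The part of the early response or of handling in Sgk1, Tsc22d3 and Per1 was not tested.

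**Figure D3:**
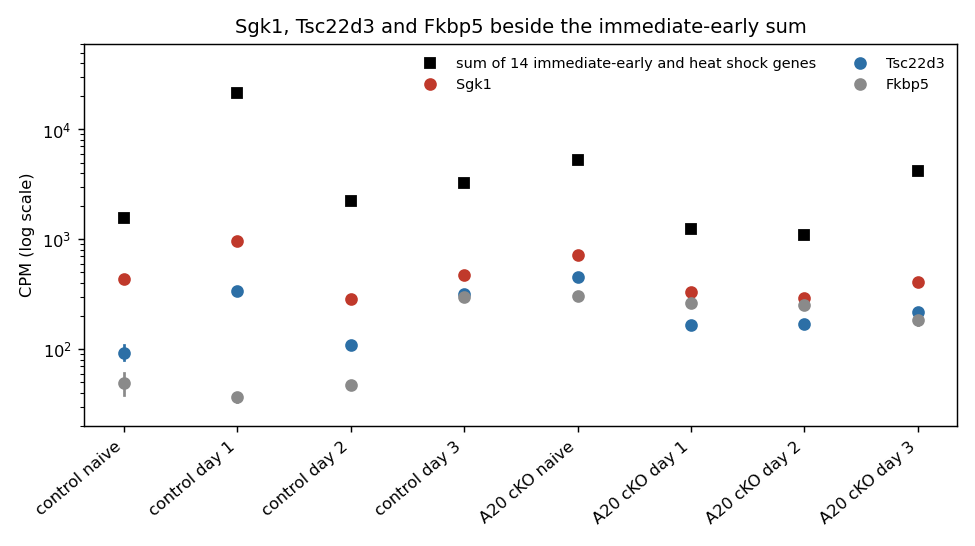
Summed level of 14 immediate-early and heat shock genes and levels of Sgk1, Tsc22d3 and Fkbp5 in CPM on a log axis, 1 point per library. Libraries are in the order of genotype and day, and colour marks the series (black squares for the sum, red for Sgk1, blue for Tsc22d3, grey for Fkbp5). The early-gene sum reaches 21696 in control day 1, where Sgk1 is highest and Fkbp5 lowest.

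Inside the linked libraries the injured A20 cKO libraries were below A20 cKO naive for several of the genes. Ddit4 was lower than in A20 cKO naive by 1.37 (interval -1.56 to -1.20), 1.42 (-1.60 to -1.25) and 1.93 (-2.17 to -1.71) over days 1 to 3. Tsc22d3 was lower by 1.46 (-1.60 to -1.33), 1.43 (-1.56 to -1.29) and 1.06 (-1.19 to -0.93) on the same days. Sgk1 was lower by 1.11 (-1.21 to -1.01) and 1.29 (-1.39 to -1.18) on day 1 and day 2, and was at -0.80 (-0.90 to -0.71) on day 3. Without cells holding a UMI of another cell type's marker, Sgk1 on day 1 was at -0.93, under 2-fold. That made 3, 3 and 2 of 7 genes past 2-fold lower, where 1.39%, 2.65% and 2% of all genes passed, and none higher, where 1.56%, 2.86% and 1.92% passed. Fkbp5 differed less, at -0.21 (-0.33 to -0.10), -0.27 (-0.38 to -0.15) and -0.73 (-0.88 to -0.59), and Per1 at 0.37 (0.08 to 0.65), -0.22 (-0.56 to 0.10) and -0.51 (-0.92 to -0.14). Mt1 was at 0.14, 0.30 and 0.56 (0.39 to 0.72), the only gene of the 7 whose value was above 0 on all 3 days. These 3 comparisons share the A20 cKO naive library. They also run along the step in shared barcodes between A20 cKO naive and the injured A20 cKO libraries. Injury and that step cannot be told apart.

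Day 3 of the same genotype contrast is the sole point where control and A20 cKO can be compared inside the linked libraries. Ddit4 was lower in A20 cKO day 3 than in control day 3 by 1.51 (interval -1.75 to -1.28), 1 of 7 genes where 2.4% of all genes passed lower and 1.86% higher. Fkbp5 was at -0.71 (-0.86 to -0.57), Per1 at -0.56 (-0.97 to -0.18), Tsc22d3 at -0.54 (-0.68 to -0.41), Nr3c1 at -0.42 (-0.60 to -0.25), Sgk1 at -0.20 (-0.30 to -0.10) and Mt1 at 0.13 (-0.03 to 0.29). The median over all genes was -0.12. Klf9, with fewer than 100 UMIs in both libraries together, was at -1.56 (-2.73 to -0.67), and Mt2 at 0.84 (0.13 to 1.51).

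**Figure D4:**
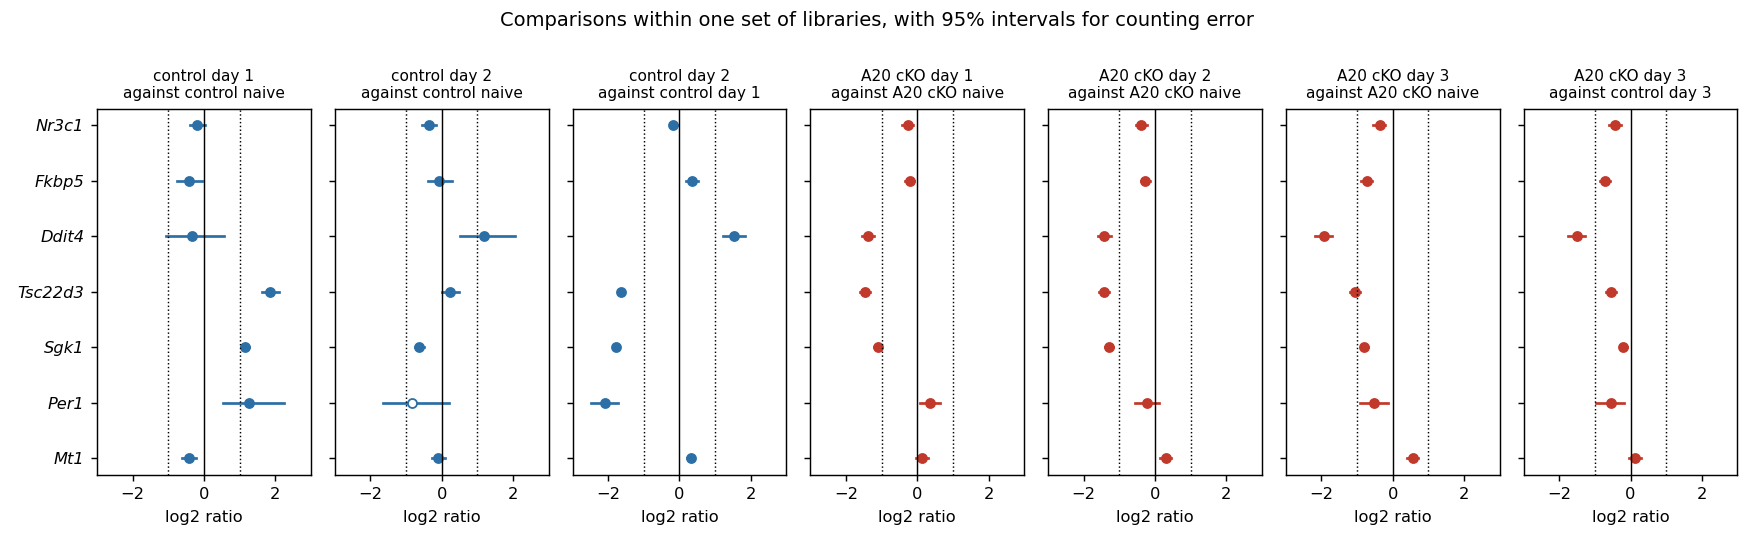
Log2 ratio of summed UMIs with its 95% counting interval for 7 genes in the comparisons that stay inside control naive, day 1 and day 2 or inside the linked libraries. Filled points reach 100 UMIs in both libraries together and the open circle does not, and dotted lines mark 2-fold. Tsc22d3 and Sgk1 are above 0 for control day 1 and below 0 for A20 cKO day 1 and day 2, each against the naive library of its own genotype.

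The remaining comparisons cross the split, so that day or genotype cannot be told apart from it, and they share control naive or control day 2. The 9 genes were chosen on this split, so nothing is read from the counts below. Control day 3 against control naive gave Ddit4 at 4.23 (3.57 to 5.08), Fkbp5 at 2.62 (2.30 to 2.97), Per1 at 2.25 (1.51 to 3.23) and Tsc22d3 at 1.77 (1.54 to 2.02), 4 of 7 genes where 8.76% of all genes passed higher and 2.32% lower. Against control day 2 the same genes were at 3.04, 2.68, 3.08 and 1.54 and Klf9 at 3.09 (2.43 to 3.86), 5 of 8 where 13.1% passed higher and 2.69% lower. Klf9 reached 100 UMIs there through control day 3, which held 88 of them against 22 in control day 2. A20 cKO naive against control naive gave 4.65 (3.996 to 5.51) for Ddit4, 2.63 (2.32 to 2.98) for Fkbp5, 2.29 (2.06 to 2.54) for Tsc22d3 and 2.21 (1.47 to 3.19) for Per1, 4 of 7 where 7.43% passed higher and 2.22% lower. Sgk1 stayed under 2-fold in all 3, at 0.12, 0.75 and 0.72.

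A wider list of 24 genes known as glucocorticoid targets was looked at in the same way. Of 15 tested, 1 was past 2-fold higher in the linked libraries with no overlap, where 8.1% of all genes passed. None was lower, where 1.31% passed. The median was -0.05 against 0.11 over all genes. The 1 higher gene was Zbtb16, the gene of the PLZF repressor, at 3.62, named after its value was seen. Cebpb, a myeloid transcription factor gene, was at 223, 439 and 298 CPM in control naive, day 1 and day 2 and at 553 to 729 CPM in the linked libraries (difference 0.99). Nfkbia, which encodes the NF-kappaB inhibitor IkappaB-alpha, was at 205, 523 and 193 CPM in control naive, day 1 and day 2 and at 374 to 567 CPM in the linked libraries (0.78). Dusp1, the gene of a MAP kinase phosphatase, was at 24.1, 1948 and 50.1 CPM in control naive, day 1 and day 2, 132 in control day 3 and 236, 16.8, 38.9 and 204 in A20 cKO naive to day 3. Zfp36, which encodes an RNA-binding protein that destabilizes cytokine messages, was at 118, 601 and 82.1 CPM in control naive, day 1 and day 2 and at 54.7 to 182 CPM in the linked libraries. Dusp1 and Zfp36 had the same 3 highest libraries as the early-gene sum, control day 1, A20 cKO naive and A20 cKO day 3.

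Between single libraries, where a call needed 2-fold only, the wider list gave these counts. On control day 1 against naive, 4 of 12 tested were higher (Dusp1 6.32, Zfp36 2.34, Nfkbia 1.35, Rhob 1.08), where 3.82% of all genes passed. In the same comparison 1 was lower (Sesn1 -1.20), where 7.25% passed. On day 2 against day 1 the 4 that were higher on day 1 were lower, 4 of 14 where 1.83% passed. On A20 cKO day 1 against naive 5 of 11 were lower (Dusp1, Sesn1, Zfp36, Glul and Rhob), where 1.39% passed. There 1 was higher (Bcl6, 1.12), where 1.56% passed. On A20 cKO day 2 it was 4 of 10 lower (Dusp1, Zfp36, Rhob and Txnip), where 2.65% passed. On day 3 it was 2 of 10 (Sesn1 and Txnip), where 2% passed. None of 10 passed 2-fold between A20 cKO day 3 and control day 3, where 1.86% of all genes passed higher and 2.4% lower. Crossing the split, 2 of 10 were higher in control day 3 than in control naive (Dusp1 and Cebpb), where 8.76% passed. Against control day 2 it was 3 of 13 (Dusp1, Cebpb and Bcl6), where 13.1% passed. In A20 cKO naive 4 of 10 were higher than in control naive (Dusp1, Nfkbia, Cebpb and Cdkn1a), where 7.43% passed. Nothing is read from these counts. The genes of these counts beyond the naming rule were named after their values were seen.

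Genes that work with the receptor stayed under 2-fold between the sets. Of 13 tested chaperones, co-chaperones and coregulators, none passed 2-fold with no overlap (median 0.29). Fkbp4, the co-chaperone gene that counteracts FKBP5 on the receptor, was at 118 to 142 CPM in the other 3 libraries and 54.7 to 83.2 in the linked ones (-0.91), opposite to Fkbp5. On control day 1, 4 of 12 were higher than in control naive, where 3.82% of all genes passed. All of them were chaperone genes (Hsp90aa1 2.14, Hsp90ab1 1.96, Hspa8 1.89 and Stip1 1.19). Nr3c2, the mineralocorticoid receptor gene, was lower in A20 cKO day 3 than in control day 3 by 1.25. It was the only 1 of 13 past 2-fold there, where 2.4% of all genes passed lower.

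Relatives of the 9 genes stayed under 2-fold as well. Of 15 tested family relatives, none passed 2-fold with no overlap between the sets (median -0.17). Sgk3, a kinase gene related to Sgk1, was at 48.3 to 51.5 CPM in the other 3 and 87.4 to 107 CPM in the linked libraries (0.96), a split that Sgk1 itself did not have. Klf2, a relative of Klf9, was at 64.8, 3245 and 300.4 CPM in control naive, day 1 and day 2. On control day 1 it passed 2-fold with Klf4 and Klf6, 3 of 15 where 3.82% of all genes passed higher. Of 13 other clock genes 1 was lower between the sets, the output gene Dbp at -1.52, where 1.31% of all genes passed lower. Per3 was at -0.52 and Clock at 0.53. Of 12 zinc and metal genes none passed, with Slc39a1, a zinc importer gene, at -0.78. Of 13 mTORC1 and ATF4 genes none passed, with Rptor at 0.39 and Eif4ebp1 at -0.43.

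Lists with other sources showed how broad the split was. All 12 interferon genes were higher in the linked libraries with no overlap (median 3.96), summing to 2000 to 3611 CPM against 198 to 444. Of 10 tested inflammatory genes that glucocorticoids are known to lower, 3 were higher (Ccl5 6.06, Il12b 5.88 and Cxcl10 5.26) and none lower. Over all genes 8.1% passed higher and 1.31% lower. Of the 3, Ccl5 and Il12b were at 34.9 and 0.549 CPM in control day 3 against 1435 to 2756 and 23.4 to 140.4 CPM in the A20 cKO libraries. In both, control day 3 lay near the other control libraries. In A20 cKO day 3 against control day 3, 7 of 9 inflammatory genes were higher and none lower, where 1.86% and 2.4% of all genes passed. Ddit4 was lower in the same comparison. The core G2/M list (18 tested) and the core S list (12 tested) had no gene past 2-fold without overlap, with medians of 2.79 and 0.43, and the summed G2/M list was at 286 to 1254 CPM in the linked libraries and at 26.0 to 891 CPM in the other 3. Of the immediate-early list none of 13 passed (median -0.71).

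Within a library, cells can be compared free of the split between libraries. Dividing cells were those with UMIs of at least 3 of the 18 core G2/M genes, and 6 libraries had at least 20 of them. Sgk1 was lower in dividing than in other cells of the same library in 6 of 6 libraries, by 0.24 to 0.76 on the log2 scale, with intervals that excluded 0. In control day 2, for instance, it was at 256 CPM in 1061 dividing cells and 302 CPM in the other 2524 cells, and in A20 cKO naive at 518 and 731 CPM. Ddit4 was lower in 5 of 6, with a median of -0.82 and with A20 cKO day 1 at -0.54 (-1.57 to 0.23). Tsc22d3 was lower in 4 of 6, at -0.38 to -0.62 in those. Fkbp5 was mixed, lower in control day 3 and A20 cKO naive (both -0.59) and higher in control day 2 (0.35, 0.14 to 0.56). Mt1 was lower in 2 of 6 and Nr3c1 in 1 of 6, and neither was higher in any. Dividing cells were deeper, with a median of 4740 to 6674 UMIs against 2794 to 4149, and the levels are in CPM. Cells are not replicates, so these are values of 6 libraries.

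**Figure D5:**
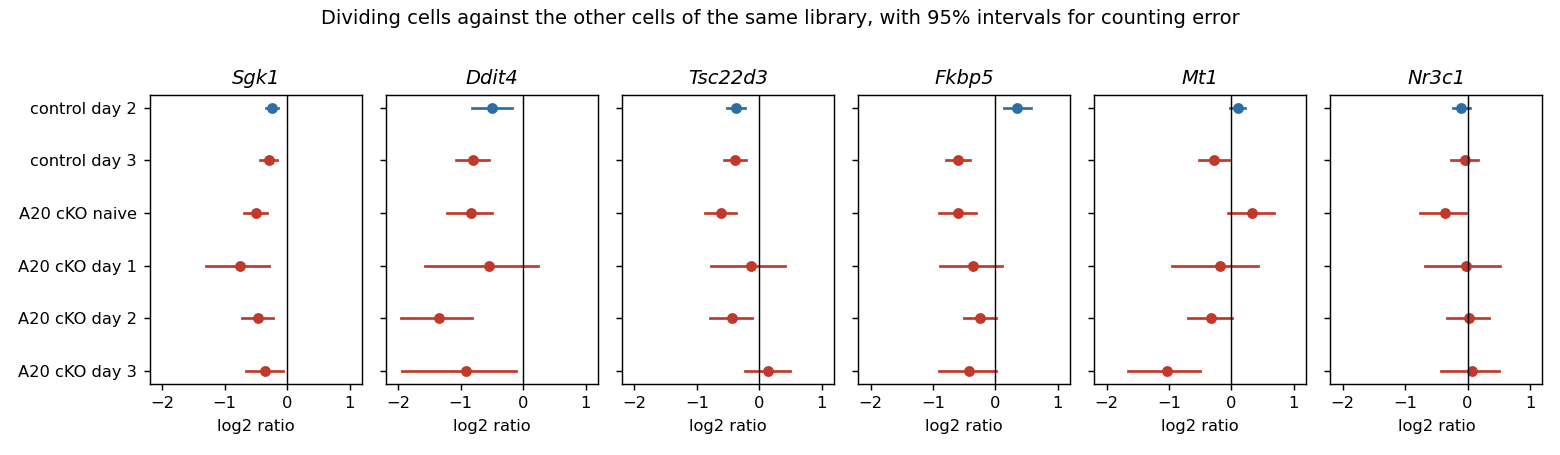
Log2 difference in CPM between dividing and other cells of the same library for Sgk1, Ddit4, Tsc22d3, Fkbp5, Mt1 and Nr3c1, 1 point per library with its 95% counting interval (blue for control day 2, red for the linked libraries). All 6 points of Sgk1 lie below 0, and Fkbp5 lies on both sides.

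Interferon-high cells, with UMIs of at least 3 of 12 interferon genes, were compared with the rest of their library in the same way. Ddit4 was lower in them in 3 of 8 libraries and higher in none: in control day 3 it was at 163 CPM against 232 CPM in the other cells, in A20 cKO naive at 166 against 343, and in A20 cKO day 1 at 70.5 against 136. Fkbp5 was lower in the same 3 libraries (-0.33, -0.58 and -0.53), Tsc22d3 in 3 and Sgk1 in 4 of 8, with none higher. Mt1 was lower in 3 and higher in 1 of 8. For Ddit4 and Fkbp5 in the other libraries the intervals spanned 0. These cells too were deeper in every library, with 3214 to 5261 UMIs at the median against 2555 to 4054.

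Fos-positive cells were set against Fos-negative cells in 7 libraries (control day 1 had fewer than 20 Fos-negative cells). Sgk1 was higher in them in 5 of 7, by 0.09 to 0.68. Tsc22d3 was higher in 3 of 7 (control day 3, A20 cKO naive and A20 cKO day 3, 0.25 to 0.63) and lower in A20 cKO day 1 at -0.93 (-2.24 to -0.03), from 24 Fos-positive cells. Fkbp5 was higher in none and lower in 1, and Ddit4, Per1 and Nr3c1 had intervals spanning 0 in all 7. Mt1 and Mt2 were each higher in 2 of 7 and Klf9 in 1 of 7.

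The number of the 9 genes found in a cell was also compared, for genes chosen on this split. A thinned cell held UMIs of 1.30, 1.75 and 1.23 of them on average in control naive, day 1 and day 2, of 2.45 in control day 3, and of 2.65, 1.84, 1.82 and 1.77 in A20 cKO naive, day 1, day 2 and day 3. The median was 2 in control day 1, as in control day 3 and the injured A20 cKO libraries, and none of the 9 was found in 8.34% of its cells against 11.6%, 12.1% and 13.2% in A20 cKO over days 1 to 3. At least 4 of the 9 were found in 0.598%, 3.75% and 1.29% of cells in control naive, day 1 and day 2 and in 6.55% to 25.7% in the linked libraries. Inside a library, the share of cells with a gene was compared between cells with and without another gene. For thinned cells with Fkbp5, the intervals with and without a Tsc22d3, Sgk1, Mt1 or Nr3c1 UMI overlapped in all 8 libraries. They also did in all 8 for Tsc22d3 given Mt1 or Nr3c1. Overlap does not show that shares were equal. In control naive, Fkbp5 was in 3.28% of cells with Nr3c1 and in 11.1% of those without. Given Mt1 it was in 14.8% of cells with and 7.37% of cells without. By intervals that did not overlap, Ddit4 was found more often with an Sgk1 UMI in 2 of 8 libraries. It was so in 1 of 8 each with Fkbp5, Tsc22d3 and Mt1, and in 1 of 7 with Per1. Ddit4 was found less often with Nr3c1 in 1 of 8, and Fkbp5 less often with Per1 in 1 of 7. Tsc22d3 was found more often with Sgk1 in 1 of 8. In every other pair and library compared the intervals overlapped. How many such differences arise among so many comparisons was not computed, so nothing is read from the single ones.

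The genes whose profile over the 8 libraries was closest to each member were named by the root mean square distance of centred log2 levels among 3264 genes of at least 50 CPM, a description over libraries that share depth, split and naive samples. Closest to Ddit4 was Fkbp5 at 0.65, and then Il15ra, a cytokine receptor gene, at 0.72. Closest to Fkbp5 were Il15ra at 0.28, Ranbp2, a nuclear pore gene, at 0.35, and Lyst at 0.35. Sgk1 was closest to Dusp6, the gene of an ERK phosphatase, at 0.16, and to Rhob and Zfp36l1 at 0.18 and 0.22. Tsc22d3 was closest to Ppp1r10 at 0.23, Per1 to Zcchc6 at 0.51, Klf9 to Hist1h1e at 0.41 and Mt2 to Rtp4, an interferon-induced gene, at 0.28. The nearly flat Nr3c1 and Mt1 had Ikzf1 (0.05) and Eef2 (0.09) as neighbours. Among the 9 themselves the closest pairs were Mt1 and Nr3c1 at 0.32, Tsc22d3 and Sgk1 at 0.51, Sgk1 and Nr3c1 at 0.58, Tsc22d3 and Nr3c1 at 0.64 and Ddit4 and Fkbp5 at 0.65. The distance is small wherever both genes vary little, so a close pair need not vary together. The standard deviation of a gene's own profile was 0.20 for Mt1, 0.27 for Nr3c1 and 0.62 for Sgk1. It was 0.81 for Tsc22d3, 1.35 for Fkbp5 and 1.88 for Ddit4.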

How the data were processed

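For 8 libraries the authors deposited UMI counts of each gene in each cell, not normalized, as sparse matrices. Reads were counted with Cell Ranger 2.1.1 on mm10 per the submitters' processing notes. The kit version differs between the labels (v3.1) and the study's methods (v3). The 9 genes and the 19 gene lists were chosen with earlier results of these data known. Of 27998 gene IDs, 27645 (98.7%) matched GENCODE M21. Kept cells had at least 1000 UMIs, 500 genes and at most 10% mitochondrial UMIs, which left 1620481 to 15817426 UMIs per library. No doublet caller was run. The sort excluded doublets by size, which does not remove cells that share a droplet. UMIs were summed per library and scaled to CPM. With 1 library per group no test was run. Ratios had 0.5 UMIs added and needed 100 UMIs in both libraries together, and called means at least 2-fold. Intervals at 95% were exact Poisson for levels, exact Clopper-Pearson for shares and exact conditional for ratios. Shares of cells were taken after thinning to 2000 UMIs, which left 502 to 3480 cells per library. In each list, genes were named by the 2 highest and 2 lowest differences among those of at least 20 CPM, and by a 2-fold difference between A20 cKO day 3 and control day 3. Scripts ran in Python 3.11.15 with numpy 2.4.6, scipy 1.17.1 and pandas 2.3.3, and were tested on simulated data. Alternatives were other cell filters, cells left out by class or shared barcode, another scaling, fold limit, minimum count and added count, and each library left out. Some results are not reported here.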

Additional observations from a re-analysis of the deposited data

Results flagged for a closer look

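For the genes below, the difference from the naive library of the same genotype pointed in opposite directions in the 2 genotypes. How many of all genes did so was not computed. The difference between genotypes was not tested, since each group was 1 library. The control libraries of day 1 and day 2 and the A20 cKO libraries lie in different sets of libraries, and control day 3 crosses the split from its own naive library, so genotype and library set cannot be told apart. On day 1, Tsc22d3 was at 1.87 in control and -1.46 in A20 cKO on the log2 scale, and Sgk1 at 1.15 and -1.11. On day 2, Ddit4 was at 1.19 in control and -1.42 in A20 cKO. On day 3, Ddit4 was at 4.23 and -1.93, Fkbp5 at 2.62 and -0.73, Tsc22d3 at 1.77 and -1.06, and Per1 at 2.25 and -0.51. In each genotype the comparisons share the naive library, and A20 cKO naive was the highest of all 8 libraries in Ddit4, Fkbp5 and Tsc22d3.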

How the results depend on the processing

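Of the log2 values of the 9 genes recomputed under the alternatives, 882 stayed within their limits and 81 moved. For pairs of libraries the limits were the counting interval, and for the set contrast 1 pooled standard deviation over libraries. Most moves came from 2 settings. Without cells with a UMI of another cell type's marker 37 moved and 62 did not, and without cell cycle cells 24 moved and 75 did not. No value past 2-fold with at least 100 UMIs changed sign, but values under 2-fold did, among them Sgk1, which in the linked libraries against the other 3 went from -0.61 to 0.27, Mt1 there from -0.14 to 0.18, and Ddit4 from -0.37 to 0.73 in control day 1 against naive. Mt2 also changed sign on its few UMIs. The count of genes past 2-fold in the linked libraries without overlap was 5, and 3 under the stricter cell filter, without cells with a core G2/M or S UMI and without barcodes found in more than 1 library (in the first and last of these the sets overlapped in Klf9 and Mt2, and without the cell cycle cells both had under 100 UMIs). It was 2 without cells with a UMI of another cell type's marker, where Per1 was at 1.66 with overlapping sets, Klf9 at 2.38 and Mt2 at 0.40, the last of these on 30 UMIs and under 2-fold. Leaving out each library gave 5 to 6, with 6 without control day 1. Control day 2 against naive gave 1 gene, 0 without cell cycle cells, where Ddit4 was at 1.73 on 36 UMIs, and 2 at 1.5-fold. Control day 3 against day 2 gave 5, and 3 without other-marker cells, where Per1 was at 3.56 and Klf9 at 4.18, both under 100 UMIs. In the same cells Per1 fell to 0.54 in control day 1 against naive and Sgk1 was at -0.93 in A20 cKO day 1 against naive, which ended both calls. A20 cKO day 3 against naive gave 2, 1 under median of ratios scaling (Ddit4) and 4 at 1.5-fold. A20 cKO day 3 against control day 3 gave 1, and 2 with all deposited barcodes, with the mean of cell CPM, with a minimum of 20 UMIs (Ddit4 and Klf9 in each) and at 1.5-fold (Ddit4 and Fkbp5). The causes were not tested. Klf9 and Mt2 rest on 1 to 88 UMIs per library, and depth limits them. No paired analysis was possible because each group had 1 library.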
